A study of Mus musculus with 22 samples.

Results

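Potassium channel genes were taken as every gene whose symbol starts with Kcn in the splicing score tables of mouse cortex. There were 64 of them among 15705 genes (0.4075%) at 6 months and 59 among 15192 genes (0.3884%) at 12 months. Of these, 53 were in both tables, 11 were only in the 6-month table and 6 only in the 12-month table, 70 distinct genes in all. By its title the series asks how a defect of the U1 snRNP, the ribonucleoprotein that recognises 5′ splice sites, relates to neuronal hyperexcitability. The 6-month mice were littermates from matings of heterozygous N40K-Tg and heterozygous FAD animals. They were wild type (WT), N40K, which carried the N40K transgene for a truncated form of the U1 snRNP protein U1-70K, 5xFAD, which carried mutant human amyloid precursor protein and presenilin transgenes, or dTg, which carried N40K and 5xFAD together (3 libraries each). The 12-month mice came from matings of Tau P301S heterozygotes with WT animals and were WT (4 libraries) or Tau P301S, which carried mutant human tau (6 libraries). The labels name no promoter, founder line or sex for any of the transgenic mice, so which cells made each transgene is not given in the sources used here. They number the libraries of a group but do not say that each came from its own animal, so the p-values measure the spread between these libraries.

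A potassium channel lets potassium leave the cell and so brings the membrane back towards rest. Voltage-gated channels end the action potential and set the firing pattern, calcium-activated channels produce the pause after spikes, inward rectifiers and two-pore channels hold the resting potential, and auxiliary subunits set where and how fast the pore opens. In cortex, loss of potassium channel function is a known cause of seizures.

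Each value is an Sd score, a linear ratio that the authors deposited with 3 decimals for every gene in every library. It was read here as a measure of deficient splicing that grows with the unspliced signal of a gene. Its formula and the read depth behind it are not stated in the labels or files. It is not an expression level, and expression was not analysed here. Fold changes are on the scale of log2(score + 0.002), which understates the change of low scores, and a change passed at an adjusted p under 0.05. The score changes in steps of 0.001, so a mean score under 0.02, called low below, rests on few steps. A mean of 0.02 or more was found for 29 Kcn genes at 6 months and 17 at 12 months.

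The libraries of a table ranked the genes alike, with Spearman rho from 0.977 to 0.989 between 6-month libraries and from 0.943 to 0.985 between 12-month ones. No library was a copy of another. The tables listed 7 of 7 neuronal and 6 of 6 cortical layer markers and 5 of 5 astrocyte markers. At 6 months they held 2 of 4 oligodendrocyte, 4 of 5 microglial, 3 of 6 endothelial and pericyte and 2 of 4 choroid plexus markers (4, 5, 5 and 3 at 12 months). They also held 1 (6 months) and 2 (12 months) of 4 genes of other tissues, but a score cannot show how much of a marker's RNA was present. In bulk tissue, fewer cells of a type and less RNA per cell cannot be told apart. Over all genes, the median score of N40K replicate 1 and of dTg replicate 2 was the highest of its group (0.036 and 0.035, against 0.03 to 0.033 in the other carriers and 0.029 to 0.031 in the non-carriers), and the main results are given with and without them.

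In WT cortex at 6 months the mean scores of the potassium channel genes ran from 0.000667 in Kcnh1 to 0.729 in Kcnh6. Among the voltage-gated pore genes the highest were Kcnh6, a channel of the ether-a-go-go family, at 0.729 ± 0.0346, and Kcnq1, which repolarises heart cells, at 0.225 ± 0.0282 (SD, n = 3). Among the auxiliary genes Kcnab3, a beta subunit of Kv1 channels, had 0.102 ± 0.00208, and Kcnip2, a calcium-binding partner of Kv4 channels with a low score, 0.011 ± 0.00265. Of the calcium-activated and Slo genes, the sodium-activated channel gene Kcnt1 had 0.0443 ± 0.00115 and Kcnu1, the sperm channel Slo3, 0.0287 ± 0.00115. Kcnj9, a G protein-gated inward rectifier, had 0.0967 ± 0.00603 and Kcnj14 had 0.062 ± 0.00917. Of the two-pore genes, the mechanically and heat-gated Kcnk4 had 0.144 ± 0.0108 and the silent subunit Kcnk12 had 0.0613 ± 0.00603. Kcnrg, which encodes a regulator that binds Kv1 subunits and is not itself a channel, had 0.308 ± 0.132. At the low end, Kcnj10 and Kcnj16, the glial inward rectifiers, stood at 0.001 in all 12 libraries. Kcnh1, Kcnj10 and Kcnj16 were chosen after their values were seen.

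The scores followed gene structure in the GENCODE M21 annotation, which covered 62 of the 64 genes (96.9%). The 34 low-scoring Kcn genes had a median of 172.9 kb of intron and the 28 others 14.94 kb, against 53.73 and 12.68 kb over all matched genes. The rank correlation of score and summed intron length was −0.722 over these 62 Kcn genes and −0.624 over all 13687 matched genes. Genes share libraries and annotation, so this is a description only. Kcnq1 (316.8 kb of intron) lay apart from the trend with a high score, and Kcnv1 (4.155 kb) with a low one. The number of introns followed the score far less (rho −0.191). A single coding exon was found in 8 of the 62 Kcn genes (12.9%), against 2.95% of all matched genes, and 7 (11.3%, against 2.56%) had a single distinct exon end over their protein-coding transcripts.

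**Figure D1:**
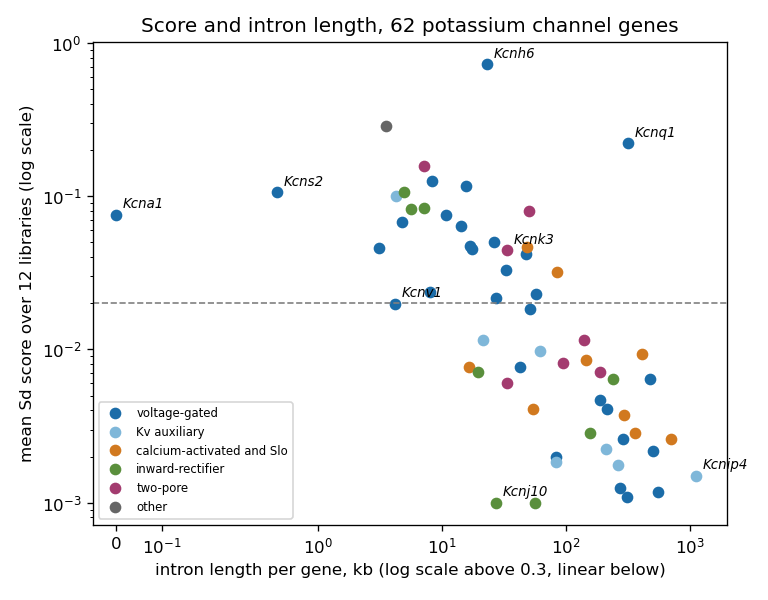
Mean Sd score over the 12 six-month libraries (log axis) against intron length per gene in kb (log axis, linear near 0) for the 62 matched Kcn genes, coloured by family, with a dashed line at the score of 0.02. Genes with more intron had lower scores (rho −0.722), Kcnq1 is the point with 316.8 kb and a high score, and Kcna1 stands at 0 kb because its intron lies inside an exon of another transcript.

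Several of the genes described next have 1 or 2 distinct exon ends over their protein-coding transcripts, so the exon ends that U1 meets there can be shown. These are the last 24 bases of the exon before each intron, from GENCODE M21 transcripts (GRCm38, sense strand, 5′ to 3′), with the last 3 bases in capitals, the part of the exon that pairs with U1 RNA. Kcnk3 and Kcna1, the 2 genes of mean score 0.02 or more that rose most with N40K, come first. Kcnj10, at 0.001 in all 12 six-month libraries, comes last.
Kcnk3: ccatcaccgtcatcaccaccaTCG
Kcna1: ctctgcgccaagccggcccgcCAG
Kcna6: cagctggcctttcttgcctctGAG
Kcnmb4 exon 1: caccagctcctgaccaaccccAAG
Kcnmb4 exon 2: ttgctattttaatcagcatcaGAG
Kcna4: tatttttcgcacttgctgggaATG
Kcnk12: tgggcaccgtggtgtcgaccaTAG
Kcnj4: cctcctcggaccttacgccccGGG
Kcnj10: cagccacttcaccttcgagccAAG
The ends of Kcnk3, Kcnk12 and Kcnmb4 lie in coding sequence. Those of Kcna1, Kcna4, Kcnj4 and Kcnj10 lie in the 5′ UTR and that of Kcna6 in the 3′ UTR. The introns that follow measure 33.29 kb in Kcnk3, 26.51 kb in Kcna6, 50.22 kb in Kcnk12 and 0.369 kb in Kcna1. The short Kcna1 intron lies inside an exon of another Kcna1 transcript, and whether its score reads that transcript was not tested. Kcnk3 and Kcna4 do not end in AG, and neither does Kcnj4. Over all 522 exon ends of the Kcn genes, 53.1% end in AG, against 55.9% of 163368 ends over all matched genes, and 38.3% against 42.6% end in CAG or AAG. The intronic bases that complete the U1 site were not used here.

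With the N40K transgene, 11 of 64 potassium channel genes rose, against 10.8% of all genes, and no other passed. Averaged over 5xFAD status, which sets the 6 carrier libraries (N40K and dTg) against the 6 others (WT and 5xFAD), 11 of 64 Kcn genes rose by limma with Benjamini-Hochberg adjustment over all genes. None fell by limma, and 1 was lower at an unadjusted p under 0.05. Over all genes 10.8% rose and 0.936% fell. An unadjusted p under 0.05 was reached by 28 Kcn genes, 27 of them higher in carriers, and by 29.1% of all genes. The median Kcn change was 0.21 on the log2 scale (54 genes above 0, 8 below), against 0.09 over all genes. With a mean score of 0.02 or more, 4 of 29 Kcn genes rose, against 9.07% of such genes in the table, and their median change was 0.23 against 0.08.

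The 11 genes that rose came from 4 of the 5 channel families. They were 6 of 32 voltage-gated pore genes (median change of the family 0.24), 3 of 7 two-pore genes (0.24), 1 of 7 auxiliary genes (0.16) and 1 of 9 calcium-activated and Slo genes (0.13). No inward rectifier rose (0 of 8 by limma, 2 at an unadjusted p under 0.05, median 0.22). Centring each library on its own median moved the median change of all genes from 0.09 to −0.04. It left the median of the voltage-gated, two-pore, inward-rectifier and auxiliary families above 0 (0.11, 0.10, 0.08 and 0.03) and put that of the calcium-activated and Slo family at −0.00194. Centring subtracts the same amount from every gene, so it leaves the gap of 0.04 to 0.15 between each family's median and that of all genes as it was. Without N40K replicate 1 and dTg replicate 2 the family medians were 0.14 (voltage-gated), 0.19 (two-pore), 0.13 (inward-rectifier), 0.10 (auxiliary) and 0.11 (calcium-activated and Slo), against 0.05 over all genes. After centring 6 Kcn genes passed, of which 5 rose (Kcnk3, Kcna1, Kcna6, Kcnk10, Kcnmb4), against 4.54% of all genes. Kcnn1, a small-conductance calcium-activated channel with a low score, fell. Of all 15705 genes in that fit 1241 passed, of which only 713 rose.

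**Figure D2:**
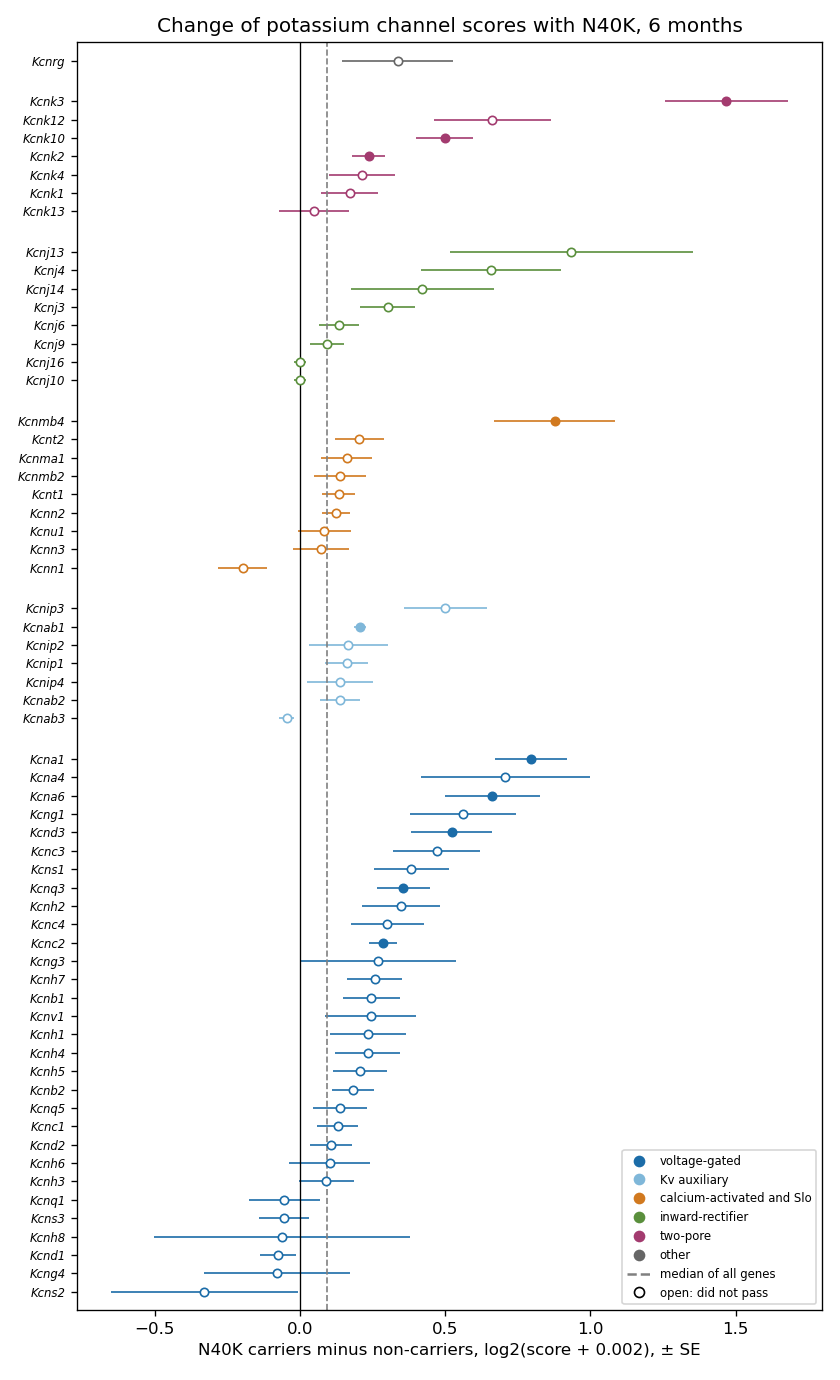
Difference between N40K carriers and non-carriers for 62 of the 64 Kcn genes by family (log2 scale, points with SE bars, filled where the gene passed), with a dashed line at the median of all genes, 0.09. The medians of the 5 channel families lie between 0.13 and 0.24, and Kcnk3 is the highest point at 1.47.

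Kcnk3 (ENSMUSG00000049265) encodes TASK-1, an acid-sensitive background channel that sets the resting potential. Its score was 0.021, 0.020 and 0.021 in WT replicates 1 to 3 and 0.024, 0.022 and 0.022 in 5xFAD. It was 0.102, 0.053 and 0.058 in N40K and 0.047, 0.097 and 0.045 in dTg. Every carrier library lay above every non-carrier one, with 0.045 as the lowest carrier and 0.024 as the highest non-carrier, and N40K replicate 1 and dTg replicate 2 were the highest. The mean was 0.067 ± 0.0256 in carriers and 0.0217 ± 0.00137 in non-carriers (SD, n = 6 each), a 2.77-fold rise (log2 change 1.47, SE 0.213, limma adjusted p = 0.00861). Without those 2 libraries the change was 1.15 (limma adjusted p = 4.09e-05).

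The stretch-gated two-pore genes Kcnk10 (TREK-2) and Kcnk2 (TREK-1) rose as well, both with low scores. Kcnk10 stood at 0.008, 0.008 and 0.009 in WT, 0.009, 0.011 and 0.010 in 5xFAD, 0.015, 0.015 and 0.011 in N40K and 0.012, 0.017 and 0.013 in dTg (1.41-fold, SE 0.0969 on the log2 scale, limma adjusted p = 0.0175). The groups met at 0.011, in 5xFAD replicate 2 and N40K replicate 3. Kcnk2 was 0.006 or 0.007 in the non-carriers and 0.007 to 0.009 in the carriers (1.18-fold, limma adjusted p = 0.0297). Without N40K replicate 1 and dTg replicate 2, Kcnk10 (adjusted p = 0.0515) and Kcnk2 (adjusted p = 0.1) did not pass in limma. The silent two-pore gene Kcnk12 had 0.05 to 0.074 in non-carriers and 0.065 to 0.158 in carriers, a change of 0.66 that did not pass (limma adjusted p = 0.0645). It passed without N40K replicate 1 (adjusted p = 0.046) and without N40K replicate 3 (adjusted p = 0.0376), but missed in 10 of the 12 fits that left 1 library out. Kcnk4, the highest-scoring two-pore gene, changed by 0.21 (limma adjusted p = 0.241).

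Among the voltage-gated genes the Kv1 (Shaker) subfamily had the largest changes, all 3 members lying between 0.66 and 0.80, between 0.53 and 0.66 after centring, and between 0.45 and 0.69 without N40K replicate 1 and dTg replicate 2. Kv1 channels sit at the axon's initial segment and beside the nodes, where they hold back firing. Kcna1 (ENSMUSG00000047976), whose loss causes episodic ataxia and seizures, scored 0.058, 0.052 and 0.060 in WT and 0.068, 0.041 and 0.051 in 5xFAD. It scored 0.103, 0.087 and 0.089 in N40K and 0.088, 0.119 and 0.093 in dTg. Carriers (0.0965 ± 0.0125) and non-carriers (0.055 ± 0.00921, SD, n = 6 each) did not overlap, and the rise was 1.74-fold (log2 change 0.80, SE 0.123, limma adjusted p = 0.0102). Without N40K replicate 1 and dTg replicate 2 it was 0.69 (limma adjusted p = 0.0329). Kcna6 (ENSMUSG00000038077), another Kv1 pore gene, scored 0.044, 0.032 and 0.039 in WT and 0.035, 0.045 and 0.033 in 5xFAD. It scored 0.075, 0.046 and 0.062 in N40K and 0.049, 0.083 and 0.058 in dTg. Its groups came nearest at 0.045 in 5xFAD replicate 2 and 0.046 in N40K replicate 2, and the rise was 1.58-fold (SE 0.163 on the log2 scale, limma adjusted p = 0.0325; 0.106 without the same 2 libraries). Kcna4, the Kv1 gene of A-type current, had a change of 0.71 that did not pass (SE 0.291, limma adjusted p = 0.143), and N40K replicate 2, at 0.021, lay below all WT libraries. Without that library Kcna4 passed (limma adjusted p = 0.0187), but it missed the threshold in 11 of the 12 fits that left 1 library out (adjusted p up to 0.273).

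Of the other voltage-gated genes that rose, those described next had low scores. Kcnq3, a pore gene of the M-current, a slow brake on repeated firing, was 0.002 in all 6 non-carriers and 0.002 to 0.004 in carriers (1.28-fold, limma adjusted p = 0.0376). It did not pass without N40K replicate 1 and dTg replicate 2 (limma adjusted p = 0.0665). Kcnc2 (ENSMUSG00000035681), a Kv3 gene of fast-spiking interneurons, was 0.004 in all 6 non-carriers and 0.005 or 0.006 in the carriers (1.22-fold, limma adjusted p = 0.0116; 0.000816 without the 2 libraries of highest median). The groups did not overlap but differed by 1 or 2 steps of the last decimal. Both carriers at 0.006 were the 2 libraries left out, so the smaller p without them comes from groups with no spread. Kcnd3, a Kv4 gene of the dendritic A-type current, was 0.002 to 0.004 in non-carriers and 0.004 to 0.007 in carriers (1.44-fold, limma adjusted p = 0.0426; 0.147 without those 2). The 2 highest-scoring genes of the family did not pass, with changes of 0.10 in Kcnh6 and −0.05 in Kcnq1 (limma adjusted p = 0.676 and 0.824). The sign turned in Kcnh6 without dTg replicate 3 (−0.01) and after centring (−0.03), and in Kcnq1 without dTg replicate 1 (0.04).

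Kcnmb4 (ENSMUSG00000054934) encodes the neuronal beta subunit of the BK channel, the large calcium- and voltage-gated channel that shortens the spike. It was 0.002 in every WT library and 0.002, 0.003 and 0.002 in 5xFAD, against 0.011, 0.004 and 0.004 in N40K and 0.004, 0.008 and 0.005 in dTg. Its score was low, and the groups did not overlap but came within 1 step of the last decimal (0.003 against 0.004). The rise was 1.84-fold (log2 change 0.88, SE 0.208, limma adjusted p = 0.0297), or 0.59 without N40K replicate 1 and dTg replicate 2 (limma adjusted p = 0.00973). The BK pore gene Kcnma1, chosen after its values were seen, stood at 0.002 or 0.003 in every library (change 0.16, limma adjusted p = 0.262). Kcnt1 and Kcnu1 did not pass (changes 0.13 and 0.08, limma adjusted p = 0.162 and 0.582), and after centring their changes were −0.00194 and −0.05. Kcnt1 passed without dTg replicate 1 (limma adjusted p = 0.0349), but it missed the threshold in 11 of the 12 fits that left 1 library out.

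Of the auxiliary genes, Kcnab1, a beta subunit that gives Kv1 channels fast inactivation, passed with a change of 0.21 (limma adjusted p = 0.0021). Its score was 0.001 in all 3 WT libraries and 0.002 in the other 9, 1 step of the last decimal, and it passed through the WT group alone. Kcnab3 (change −0.04, limma adjusted p = 0.276) and Kcnip2 (0.17, limma adjusted p = 0.458) did not pass. Among the inward rectifiers, Kcnj9 changed by 0.09 (−0.04 after centring) and Kcnj14 by 0.42 (limma adjusted p = 0.311 and 0.285). Kcnj13, chosen after its values were seen, had the largest change of the family, 0.94, but spread from 0.016 to 0.087 in the non-carriers and from 0.066 to 0.163 in the carriers (SE 0.419, limma adjusted p = 0.176). Kcnrg changed by 0.34 (limma adjusted p = 0.278) and its WT libraries alone ranged from 0.17 to 0.432.

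**Figure D3:**
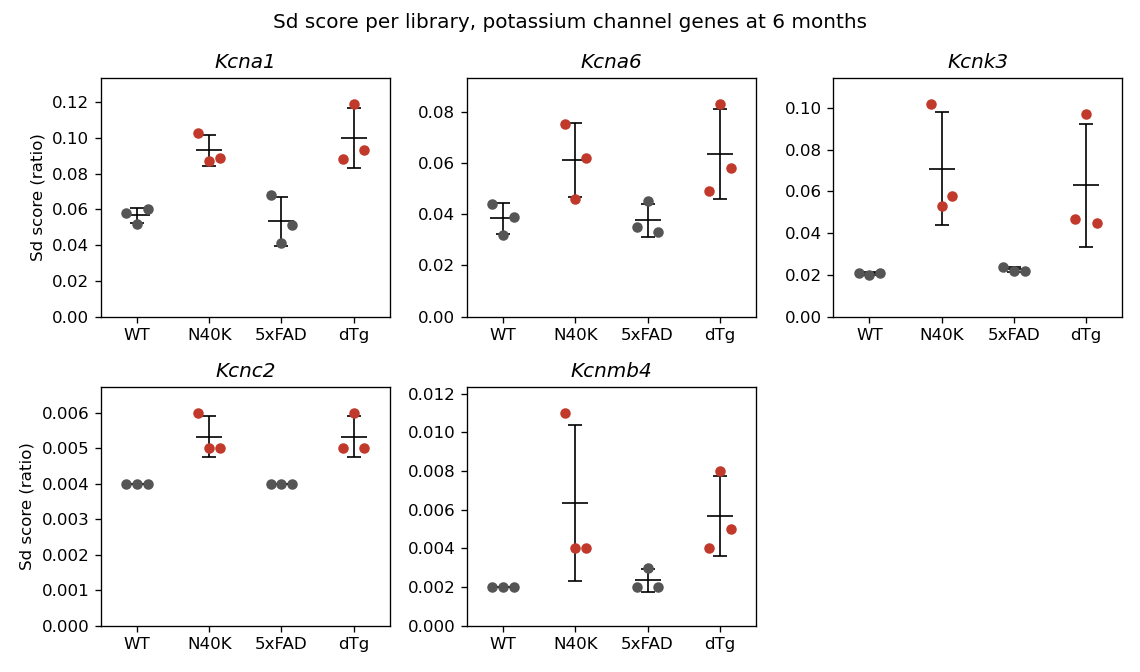
Sd score in each of the 12 six-month libraries (points, carriers of N40K in red) for 5 Kcn genes whose carriers all lay above all non-carriers, with group mean and SD as bars and a separate axis per gene. Kcnk3 shows non-carriers at 0.020 to 0.024 and carriers at 0.045 to 0.102.

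In all, the 6 carriers lay above the 6 non-carriers in 6 Kcn genes, among them Kcna1, Kcna6, Kcnc2, Kcnk3 and Kcnmb4, against 5.11% of all genes. They lay below them in 0 Kcn genes, against 0.395% of all genes. With a mean score of 0.02 or more it was 4 of 29, against 5.12%. N40K replicate 1 was alone the highest of its group in 8 of the 11 genes that rose and dTg replicate 2 in 10. Over all 64 Kcn genes they were alone the highest in 43 (67.2%) and 31 (48.4%), against 56.6% and 47.2% of all genes. Without both, 5 Kcn genes rose (Kcna1, Kcnab1, Kcnc2, Kcnk3 and Kcnmb4), against 4.4% of all genes, and the Kcn median was 0.13 against 0.05 over all genes. Among these 5, Kcnab1 did not vary within any group, so leaving out libraries could not change its difference. Kcnc2 then stood at 0.005 in every carrier left and at 0.004 in every non-carrier. With no spread left in any group, its pass in that fit rests on 1 step of the last decimal and is no check of stability.

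The count of 11 also moved by over 1.5 times when single libraries were left out. It was 5 without WT replicate 2, without 5xFAD replicate 3 or without dTg replicate 2, 6 without 5xFAD replicate 1, and 7 without WT replicate 1, WT replicate 3 or N40K replicate 1. In those 7 fits the share of all genes that rose was 4.67% to 8.13%. Kcna1, Kcnab1, Kcnc2, Kcnk10 and Kcnk3 passed in each of the 12 fits that left 1 library out (limma adjusted p at most 0.0461, in Kcnk10). The other 6 missed the threshold in 6 to 10 of those 12, with adjusted p up to 0.102 in Kcnd3 without dTg replicate 2. For Kcnab1 these fits are no check of stability. Its score did not vary within any group, so its change stayed at 0.21 whichever library was left out.

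**Figure D4:**
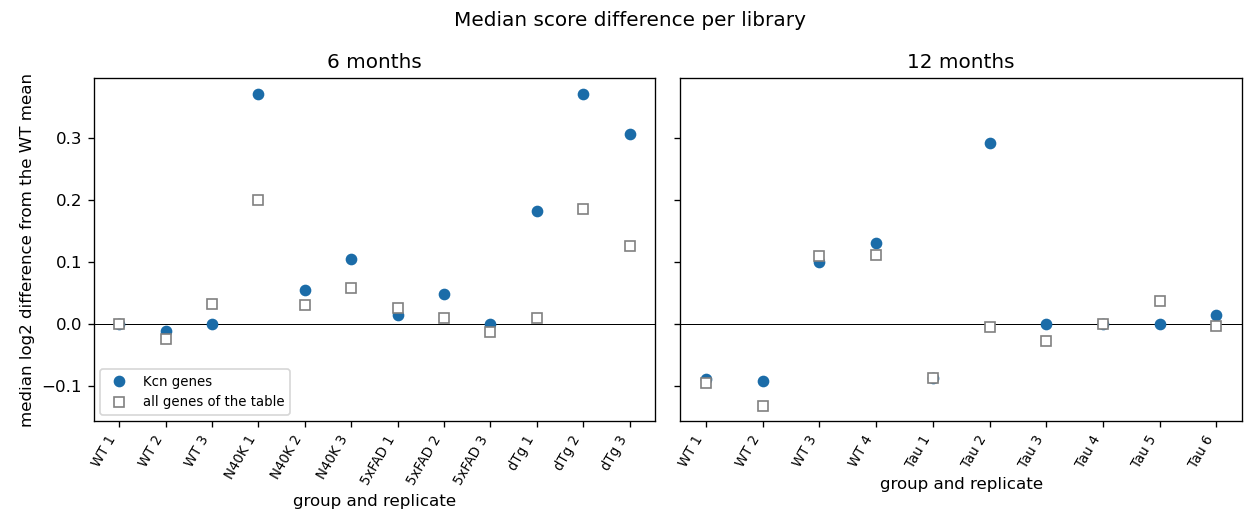
Median log2 difference from the WT mean of the same age over the Kcn genes (filled circles) and over all genes of the table (open squares), by library. N40K replicate 1 and dTg replicates 2 and 3 are the highest 6-month libraries for Kcn genes (0.37, 0.37 and 0.31), and Tau P301S replicate 2 the highest at 12 months (0.29).

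The N40K effect was then read separately in mice without and with the 5xFAD transgenes, where each comparison has 3 libraries a side and the pairs share none. Against WT, N40K mice had 1 Kcn gene past the threshold (Kcnab1, the single step described above), against 0.178% of all genes, and 14 at an unadjusted p under 0.05 (18.9% of all genes), all higher. Against 5xFAD, dTg mice had 0 Kcn genes past the threshold by limma, against 0.312% of all genes, and 17 at an unadjusted p under 0.05 (18% of all genes), 16 of them higher. The median Kcn change was 0.22 in the first and 0.21 in the second, with 0.10 over all genes in both. Kcnk3 changed by 1.63 (SE 0.301, limma adjusted p = 0.073) and 1.31 (limma adjusted p = 0.0946), and Kcna1, the smallest p of the second comparison, by 0.69 (limma adjusted p = 0.0908) and 0.90 (limma adjusted p = 0.0742). Across the 64 genes the changes had a Pearson r of 0.709 and a Spearman rho of 0.583, against 0.511 and 0.529 across all genes. Both changes were above 0 in 46 Kcn genes (71.9%) and in 54.9% of all genes, and genes are not independent replicates. Leaving out dTg replicate 2 from the shared fit let 4 Kcn genes pass in N40K against WT (Kcnab1, Kcnc2, Kcnk10 and Kcnk3), and leaving out WT replicate 3 let 2 pass (Kcnab1 and Kcnab2). Leaving out N40K replicate 1 let 3 pass in dTg against 5xFAD (Kcna1, Kcnc2 and Kcnk3). These counts have no share of all genes beside them, so they cannot be read against the background.

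**Figure D5:**
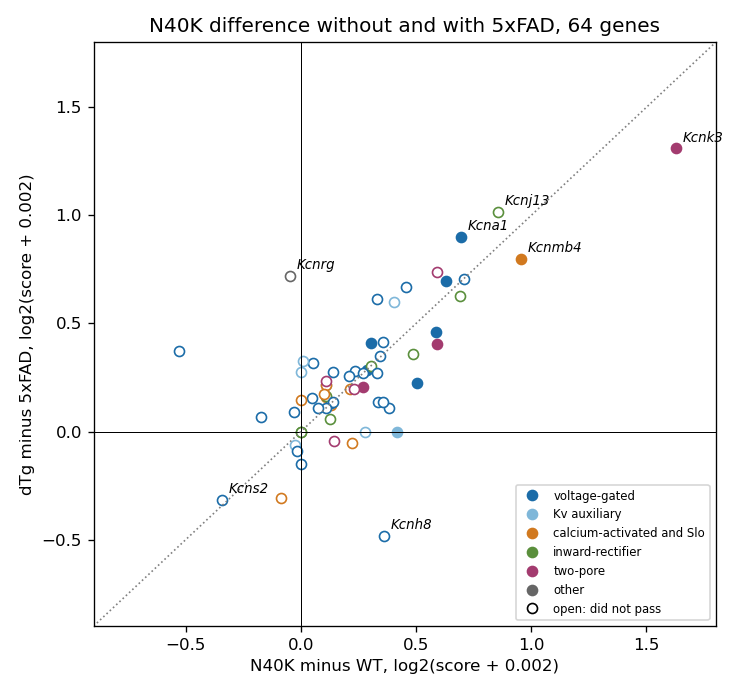
Difference of each of the 64 Kcn genes with N40K in mice without 5xFAD (N40K minus WT, horizontal) and with it (dTg minus 5xFAD, vertical), on the log2 scale and coloured by family, filled where the averaged difference passed, with the dotted line marking equality. In 46 genes both values are above 0, and Kcnk3 lies farthest out at 1.63 and 1.31.

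Set directly against WT, dTg mice had a median Kcn change of 0.28 (0.11 over all genes), with 58 of 64 genes above 0. By limma 1 Kcn gene passed (Kcnab1), against 1.57% of all genes, and 25 had an unadjusted p under 0.05 (22.5% of all genes). Kcnk3 (1.43, limma adjusted p = 0.0516) and Kcna1 (0.79, limma adjusted p = 0.0568) lay just outside. Without N40K replicate 1, which is in the shared fit but in neither group compared, 7 Kcn genes passed (Kcna1, Kcnab1, Kcnc2, Kcnk10, Kcnk3, Kcnmb4 and Kcnq3). It was 2 without 5xFAD replicate 1 or 2 (Kcna1 and Kcnab1) and 2 without WT replicate 3 (Kcnab1 and Kcnab2). The share of all genes that passed in these fits is not given here, and the cause of the moves was not tested.

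With the 5xFAD transgenes the median changes of potassium channel genes were small. Averaged over N40K status, the median Kcn change was 0.04 (0.01 over all genes), and only Kcnab1 passed, against 0.0446% of all genes. In 5xFAD against WT, Kcnab1 was again the 1 gene past the threshold, against 0.0191% of all genes, and 2 had an unadjusted p under 0.05 (4.39% of all genes). In both comparisons Kcnab2, at 0.001 to 0.002 in every library, passed beside it without WT replicate 3. In dTg against N40K mice no Kcn gene passed by limma (0.0191% of all genes did). By an unadjusted p under 0.05 there was 1 Kcn gene, against 5.14% of all genes. The interaction of N40K and 5xFAD passed in 1 Kcn gene, against 0.0191% of all genes. It was Kcnab1 (−0.42, limma adjusted p = 0.0119), and it missed the threshold without WT replicate 1 or N40K replicate 3 and had Kcnab2 beside it without WT replicate 3. For Kcnk3 the interaction was −0.32 (SE 0.425) and for Kcna1 0.21 (SE 0.246), neither past the threshold (limma adjusted p = 1).

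At 12 months the Tau P301S transgene was compared with WT in the same way, and no Kcn gene passed by limma (0 of 59, with 0 at an unadjusted p under 0.05). Over all genes 0.00658% passed and 8.28% had an unadjusted p under 0.05. In 0 Kcn genes did all 6 Tau P301S libraries lie above all 4 WT libraries (0.29% of all genes) or below them (0.994% of all genes). The median Kcn change was 0.09 (36 genes above 0, 23 below) against −0.02 over all genes, and 0.03 in the 17 genes with a mean score of 0.02 or more. Kcna1 had the smallest p, in the direction opposite to that with N40K. It scored 0.044, 0.047, 0.076 and 0.070 in WT replicates 1 to 4 and from 0.023 to 0.055 in the 6 Tau P301S libraries. The groups overlapped from 0.044 to 0.055. The means were 0.0593 ± 0.0161 (SD, n = 4) and 0.0398 ± 0.0125 (SD, n = 6), a change of −0.57 that did not pass (SE 0.262, limma adjusted p = 0.601).

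By family, the median change was 0.09 over 28 voltage-gated genes, 0.01 over 9 calcium-activated and Slo genes, 0.14 over 7 inward rectifiers, 0.13 over 7 two-pore genes and −0.10 over 7 auxiliary genes, and none passed. The 4 KChIP genes, whose products bind Kv4 channels, lay between −0.23 and −0.05, and between −0.21 and −0.03 after centring. All 4 had low scores, and Kcnip4 stood at 0 or 0.001 in every 12-month library, so these changes rest on few steps of the last decimal. Kcnk4, chosen after its values were seen, scored 0.072, 0.058, 0.089 and 0.083 in WT and 0.078 to 0.090 in 4 of the Tau P301S libraries, with 0.164 in replicate 2 and 0.174 in replicate 3 (change 0.49, limma adjusted p = 0.669). Tau P301S replicate 2 stood apart in these genes. Its median Kcn change against the WT mean was 0.29, against −0.09 to 0.01 in the other 5, while its median over all genes was −0.01. It was alone the highest of its group in 16 of 59 Kcn genes (27.1%), against 15.4% of all genes. Without replicates 2 and 3 the median Kcn change was 0, still with no gene past the threshold.

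The WT libraries of both ages were put side by side for the 53 genes in both tables. The tables differ in age and breeding and were deposited separately, which cannot be told apart, so no test was made. The WT means ranked alike (Spearman rho 0.861), and 40 genes were higher in the 6-month table. Scores of all genes were higher there too, with library medians of 0.029 to 0.03 in WT at 6 months and 0.013 to 0.017 at 12 months. The share of all genes that were higher was not computed, so the 40 cannot be read as particular to Kcn genes. The widest gaps, chosen after the values were seen, were in Kcnj9 (0.0967 ± 0.00603 at 6 months, n = 3, against 0.007 ± 0.00183 at 12 months, n = 4) and the Kv3 gene Kcnc4 (0.0393 against 0.003). Kcna6, which rose with N40K, had 0.0383 against 0.00525. In the opposite direction Kcnc2 had 0.004 against 0.0255, and Kcnh6 had 0.729 against 3.34 ± 1.56. Kcna1 stood at 0.0567 and 0.0593.

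Genes that work with potassium channels gave a background from outside the family. Of 34 partner genes in the 6-month table (scaffolds, cell adhesion proteins of the axon, Hcn channels, calmodulins and sodium pumps), 3 (8.82%) rose with N40K averaged over 5xFAD status and 0 fell by limma, with a median change of 0.04, against 10.8% and 0.09 over all genes. At an unadjusted p under 0.05 there were 11, of which 10 were higher, against 29.1% of all genes. The 3 were Lgi1, a secreted protein that acts at Kv1 channels and synapses and whose loss causes epilepsy (1.23-fold, limma adjusted p = 0.0236), the pacemaker channel gene Hcn4 (1.48-fold, limma adjusted p = 0.0285) and Vapb, a membrane protein that clusters Kv2 channels (1.32-fold, limma adjusted p = 0.034). Of 36 sodium and calcium channel genes (Scn and Cacn), 5 (13.9%) rose and 1 fell, with a median of 0.10. At 12 months no gene of either list passed by limma, of 33 and 37, with 2 in each at an unadjusted p under 0.05.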

How the data were processed

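Poly(A)-selected RNA of mouse cortex was sequenced as stranded 100 bp paired-end reads, per the labels' protocols. The deposited Sd scores are a linear ratio per gene and library rounded to 3 decimals. The submitters' processing notes name CASAVA, STAR, BWA, bedtools 2.16.1 and mm9, and the formula, gene counter and annotation are not given in the sources used here. Depth is unknown, so no interval that needs it is given.

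All genes of a table were fitted together with limma 3.58.1 in R 4.3.3 on log2(score + 0.002), with 1 term per group and 2-sided Benjamini-Hochberg adjusted p over all its genes. The 8 contrasts at 6 months and 1 at 12 months left 8 residual degrees of freedom (prior 1.2 and 1.11). The script was tested on simulated data. Named genes were the members past the threshold in a contrast or else the smallest p, the 2 highest WT means of each family, and members of mean score 0.02 or more whose carriers and non-carriers did not overlap. The members, families and partner list were chosen with earlier results of these data known. Some members are counted and not reported here by name. Alternatives were other pseudocounts (0.01 and 0.001), a filter at 0.02, centring, a variance trend, linear scores, a replicate block and leaving libraries out.

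Exon ends and intron lengths came from GENCODE M21 by Ensembl identifier, with no coordinate taken from it. Scores at 0 made up 1 Kcn value at 6 months and 53 at 12 months.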

Additional observations from a re-analysis of the deposited data

Results flagged for a closer look

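In the 6 Tau P301S libraries, single values lay far from the rest of their group in several potassium channel genes, by more than 1 step of the last decimal. In replicate 2 these were Kcnb2 (0.012, the others 0.002 to 0.005), Kcnh7 (0.012), Kcnd1 (0.036) and Kcnq3 (0.004). In replicate 3 Kcnip2 had a low value of 0.007, and in replicate 6 Kcnu1 had 0.019. The spread test covered 108 groups and found 22 such values, of which 16 differed by 1 step and are not listed. Its rate of about 1 in 20 groups by chance holds for continuous values. In these rounded scores, 1 value a step away from an otherwise equal group is always flagged. The 22 therefore cannot be set against that rate. Of the 6 listed, 4 are in replicate 2, and their cause was not tested. The 6-month groups, of 3 libraries each, were not screened, so outlying single values there are not covered.

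The effect of N40K on Kcnab1 differed between mice without and with 5xFAD, by −0.415 on the log2 scale (limma adjusted p = 0.0119). The difference rests on 1 step of the last decimal, from 0.001 in the WT libraries to 0.002 in all others.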

How the results depend on the processing

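The values below are counts of Kcn genes past the threshold, and the cause of a move was not tested unless the setting itself removes genes or libraries. For N40K averaged over 5xFAD status (11), the count was 4 with only genes of mean score 0.02 or more, 6 after centring, 3 on linear scores, and 5 without N40K replicate 1 and dTg replicate 2. It was 8 with the pseudocount of 0.01, and 11 with that of 0.001 or with the variance trend. All of these rose, except that after centring 5 of the 6 did. Of all genes, 4.54% rose after centring, 4.5% on linear scores, 9.93% with the pseudocount of 0.01 and 10.8% with that of 0.001. Of the 9640 genes kept by the filter 7.8% rose, and 4.4% of all genes without N40K replicate 1 and dTg replicate 2. On linear scores the 3 of 64 Kcn genes were thus close to the share of all genes. The comparisons in which only Kcnab1 passed (5xFAD averaged, N40K minus WT, 5xFAD minus WT and the interaction) gave 0 with the pseudocount of 0.01, with the filter, after centring and on linear scores. The dTg minus WT count (1) was 0 with the filter and on linear scores, 2 with the pseudocount of 0.001, 1 (Kcnk3) after centring and 1 with the pseudocount of 0.01. Without N40K replicate 1 and dTg replicate 2 it was 4, N40K minus WT gave 3, and dTg minus 5xFAD (0) gave 2. With 1 library left out in turn, the range was 5 to 15 for N40K averaged, 1 to 2 for 5xFAD averaged and for 5xFAD minus WT, 1 to 4 for N40K minus WT, 1 to 7 for dTg minus WT, 0 to 3 for dTg minus 5xFAD and 0 to 2 for the interaction. For N40K averaged, 4.67% to 14.1% of all genes rose in these fits. With the variance trend, and for the other contrasts in the alternative settings, the share of all genes is not given. With the replicate number as a replicate block the counts were 6 for N40K averaged (5.16% of all genes rose), 0 for 5xFAD averaged and 0 for the interaction. None of the 18 same-numbered pairs at 6 months, and 1 of 4 at 12 months, had a correlation of deviations over 0.1. With so few libraries in a group such correlations cannot exclude a pairing by number, and the main fits used none. The Tau P301S count was 0 in every setting run. Among the named changes, none of those that passed turned in sign. With N40K averaged, centring turned Kcnh6 (−0.0326), Kcnt1 (−0.00194), Kcnu1 (−0.0503) and Kcnj9 (−0.0411), and leaving out 1 library gave −0.0131 to 0.20 for Kcnh6 and −0.12 to 0.0443 for Kcnq1, none of them past the threshold. Unknown depth and the 3-decimal rounding limit the low scores most.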
